A study of Mus musculus with 12 samples.

Results

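The genes described here are 7 genes of the major histocompatibility complex (MHC) class II pathway of the mouse, out of 21743 genes in the deposited table: Cd74, H2-Aa, H2-Ab1, H2-Eb1, H2-DMa, H2-DMb1 and Ciita. They were listed by name, not by any measured value, and all 7 have a row in the table. Their levels were read in Ptprc-negative Epcam-positive cells, that is, cells with 0 molecules of the pan-leukocyte gene Ptprc and at least 1 of the epithelial adhesion gene Epcam. This gate held 729 of 818 cells of mammary gland MG1, 2108 of 2335 of MG2 and 6218 of 7690 of mammary tumor MT1, together 9055 of 10843 cells. Tumor MT2 had 121 such cells among 10314, so its tumor cells were taken instead from clusters that came almost wholly from tumor libraries (9789 cells), and its immune-like cells from a cluster led by immune genes (178 cells).

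The cells came from 2 mice of a mixed C57BL/6 and 129/Sv strain that carry MMTV-Cre and floxed Brca1 on both alleles, each with a mammary tumor. Mouse 1 gave gland MG1 (2 libraries) and tumor MT1 (5 libraries), and mouse 2 gave gland MG2 (2 libraries) and tumor MT2 (3 libraries). Glands were the fourth pair. Gland and tumor of a mouse share its germline genotype, and no gland without the Cre or the floxed alleles is part of the comparison. The MMTV promoter drives Cre mainly in mammary epithelium. The labels give no age for these tumor-bearing mice. The suspensions were enriched for epithelial cells with a kit that removes blood and endothelial cells, so the immune cells described are those that were left after depletion. Libraries of 1 tissue repeat the preparation and not the animal, and the p-values of library comparisons cover only the spread between these libraries.

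MHC class II molecules are pairs of an alpha and a beta chain that carry peptides from endocytosed protein to the cell surface, where CD4 T cells read them. The invariant chain, made by Cd74, holds the pair together and blocks its groove until proteases trim it away, and the H2-DM pair then exchanges the last fragment for a peptide. Dendritic cells, macrophages and B cells make these molecules constantly, while epithelial cells, those of the mammary gland included, are known to make them under interferon gamma, which acts through Irf1 and other factors on Ciita, the master coactivator of class II genes. Ciita does not touch DNA itself but sits on factors bound to a conserved promoter module, in which an X box, bound by the Rfx complex, lies a fixed distance before a Y box, bound by the Nfy complex.

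In the mouse genome (GRCm38, GENCODE M21 gene spans) 5 of the 7 genes lie on chromosome 17 within the MHC, in the order H2-DMa (chr17:34119541-34139101), H2-DMb1 (chr17:34153072-34160230), H2-Ab1 (chr17:34257689-34269419), H2-Aa (chr17:34282744-34287823) and H2-Eb1 (chr17:34305867-34316674), with H2-Aa on the minus strand and the others on the plus strand. Ciita lies at chr16:10480059-10528418 on the plus strand. All 7 genes are annotated as protein-coding. RefSeq promoter windows (GRCm38.p6, from upstream of a gene's start to just past it) were matched for 4 of the 7. In 3 of these a sequence of the form CTNGNAAC was followed by GATTGG, with 26 or 27 bases between them and on the strand of the gene. The windows are shown because the spacing is nearly the same in genes whose counts are described below. Both motifs are in capitals, and their letters were chosen after the sequences had been seen.

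H2-Aa (chr17:34287774-34288073, minus strand): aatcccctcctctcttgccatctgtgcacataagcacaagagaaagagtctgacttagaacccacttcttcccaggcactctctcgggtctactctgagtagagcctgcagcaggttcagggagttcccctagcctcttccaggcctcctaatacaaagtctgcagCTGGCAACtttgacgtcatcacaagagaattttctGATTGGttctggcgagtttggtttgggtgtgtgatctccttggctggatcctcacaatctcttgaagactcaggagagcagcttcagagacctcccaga
H2-DMb1 (chr17:34152941-34153240, plus strand): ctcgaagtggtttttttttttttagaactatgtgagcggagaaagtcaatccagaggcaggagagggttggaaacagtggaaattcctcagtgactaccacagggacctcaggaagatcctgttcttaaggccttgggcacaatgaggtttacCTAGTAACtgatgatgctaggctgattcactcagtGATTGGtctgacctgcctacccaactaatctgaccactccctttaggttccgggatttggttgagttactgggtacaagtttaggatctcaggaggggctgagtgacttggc
H2-Eb1 (chr17:34305617-34305916, plus strand): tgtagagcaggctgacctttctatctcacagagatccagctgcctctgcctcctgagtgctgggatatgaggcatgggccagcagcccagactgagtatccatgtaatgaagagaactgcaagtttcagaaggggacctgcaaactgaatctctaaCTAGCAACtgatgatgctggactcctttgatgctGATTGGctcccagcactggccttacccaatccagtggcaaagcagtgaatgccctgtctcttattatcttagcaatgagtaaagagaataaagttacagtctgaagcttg

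The first capitals begin 84 bases before the RefSeq gene start in H2-Aa, 97 in H2-DMb1 and 94 in H2-Eb1, and the second capitals begin 49, 62 and 60 bases before it. The GENCODE span of H2-DMb1 given above begins further upstream than its RefSeq start, so that both motifs of H2-DMb1 lie inside that span. With both strands searched, CTNGNAAC occurred in 13.15% and GATTGG in 16.11% of 32851 promoter windows of the same length. Both in that order, with 20 to 35 bases between them, occurred in 21 windows (0.06392%), 4 of which belong to genes whose names begin with H2-. Of these 4, 3 are the windows printed above, from which the letters were taken, so the count is no independent support. Neither of the H2-DMa windows held the pair. A match describes letters in a window and says nothing of whether a factor binds there.

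Depth ranged from 693333 molecules in 105 cells (MG1 replicate 2) to 14841414 molecules (MT2 replicate 1), and the median per cell from 1784 to 4842 unique molecular identifiers (UMIs, 1 per captured RNA molecule). Levels are given as CPM, UMIs of a gene scaled to the total of the cell class in a library, and shares of cells after each cell was thinned to 800 UMIs, since a deeper cell shows a given gene more often. Brca1, the targeted gene, had 0 CPM in both MG1 libraries and 2.26 to 17.2 CPM in the others, but counts of 3′ ends cannot tell an intact allele from a deleted one. The gate was not strict: it took 99.3% of luminal secretory-like and 99.3% of luminal hormone-sensing-like cells of MG1 but also 51.6% of the 126 fibroblast-like cells of that gland. MG1 replicate 2 stood apart from MG1 replicate 1 in the class II genes, as the values below show, and values without it are given beside the comparisons with MG1.

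Cd74 (chr18:60803848-60812652, plus strand), the invariant chain, was detected in every library at very different levels. In gland MG1 it stood at 7.65 CPM in replicate 1 and 199 CPM in replicate 2, and in gland MG2 at 1.72 and 5.13 CPM. In tumor MT1 it stood at 57.1, 128, 56.0, 71.4 and 49.3 CPM in replicates 1 to 5. In MT2 tumor cells it stood at 0.559, 0.659 and 1.07 CPM. The 5 MT1 libraries thus lay above MG1 replicate 1, both MG2 libraries and the 3 MT2 libraries, while MG1 replicate 2 lay above all of MT1.

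The chains of the peptide-presenting molecules were ordered alike. H2-Aa, the alpha chain of I-A, stood at 1.39 and 44.7 CPM in MG1, at 0.735 and 4.11 CPM in MG2 and at 0.140, 0.879 and 1.07 CPM in MT2 tumor cells. Its MT1 libraries read 30.1, 32.3, 30.8, 37.7 and 43.0 CPM. The partner beta chain H2-Ab1 read 3.13 and 86.4 CPM in MG1 and 3.19 and 4.62 CPM in MG2. These compare with 46.3, 44.4, 44.5, 44.3 and 40.8 CPM in MT1 (44.1 ± 1.99, SD, n = 5) and with 1.05, 2.05 and 1.76 CPM in MT2 tumor cells. H2-Eb1, the beta chain of I-E, read 3.13 and 46.3 CPM in MG1, 2.70 and 2.31 CPM in MG2, 26.2, 38.5, 43.7, 46.0 and 37.6 CPM in MT1, and 0.280, 1.10 and 0.459 CPM in MT2 tumor cells. For each of these chains the MT1 libraries overlapped with neither MG2 nor MT2, and MG1 replicate 2 was again higher than every MT1 library. The alpha chain of I-E (H2-Ea and its pseudogene form) had no row in the table used here.

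The genes of the peptide-loading pair were read next. H2-DMa, its alpha chain, read 2.43 and 4.63 CPM in MG1, 2.45 and 2.05 CPM in MG2, 6.17, 3.77, 5.46, 3.30 and 5.33 CPM in MT1 and 0.979, 1.10 and 1.30 CPM in MT2 tumor cells. The MT1 libraries of this gene lay above MG1 replicate 1 and all MG2 and MT2 libraries, and MG1 replicate 2 lay within their range. H2-DMb1, the beta chain, stood at a like level in all 4 groups, with 10.4 and 9.26 CPM in MG1, 8.33 and 12.1 CPM in MG2, 9.26, 12.99, 13.2, 11.3 and 11.01 CPM in MT1 and 11.7, 12.7 and 11.01 CPM in MT2 tumor cells. Whether counts of H2-DMb1 include reads of its close paralog H2-DMb2 is not stated, so its level is uncertain.

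Ciita was detected in MT1 and in no other group. Its MT1 libraries held 6, 5, 18, 12 and 5 UMIs, or 4.63, 2.09, 3.17, 2.83 and 1.78 CPM. In MG1, MG2 and MT2 tumor cells it had 0 UMIs, which against 3 counts over each group puts pooled MT1 (2.80 CPM, 46 UMIs) at least 3.29-fold higher than MG1, at least 7.45-fold higher than MG2 and at least 38.3-fold higher than MT2 tumor cells. Its 46 UMIs were spread over 46 cells. The 178 immune-like cells of MT2 also had 0 UMIs of Ciita, but there 3 counts amount to 5.48 CPM, so a level like that of MT1 was not detectable at this depth.

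**Figure D1:**
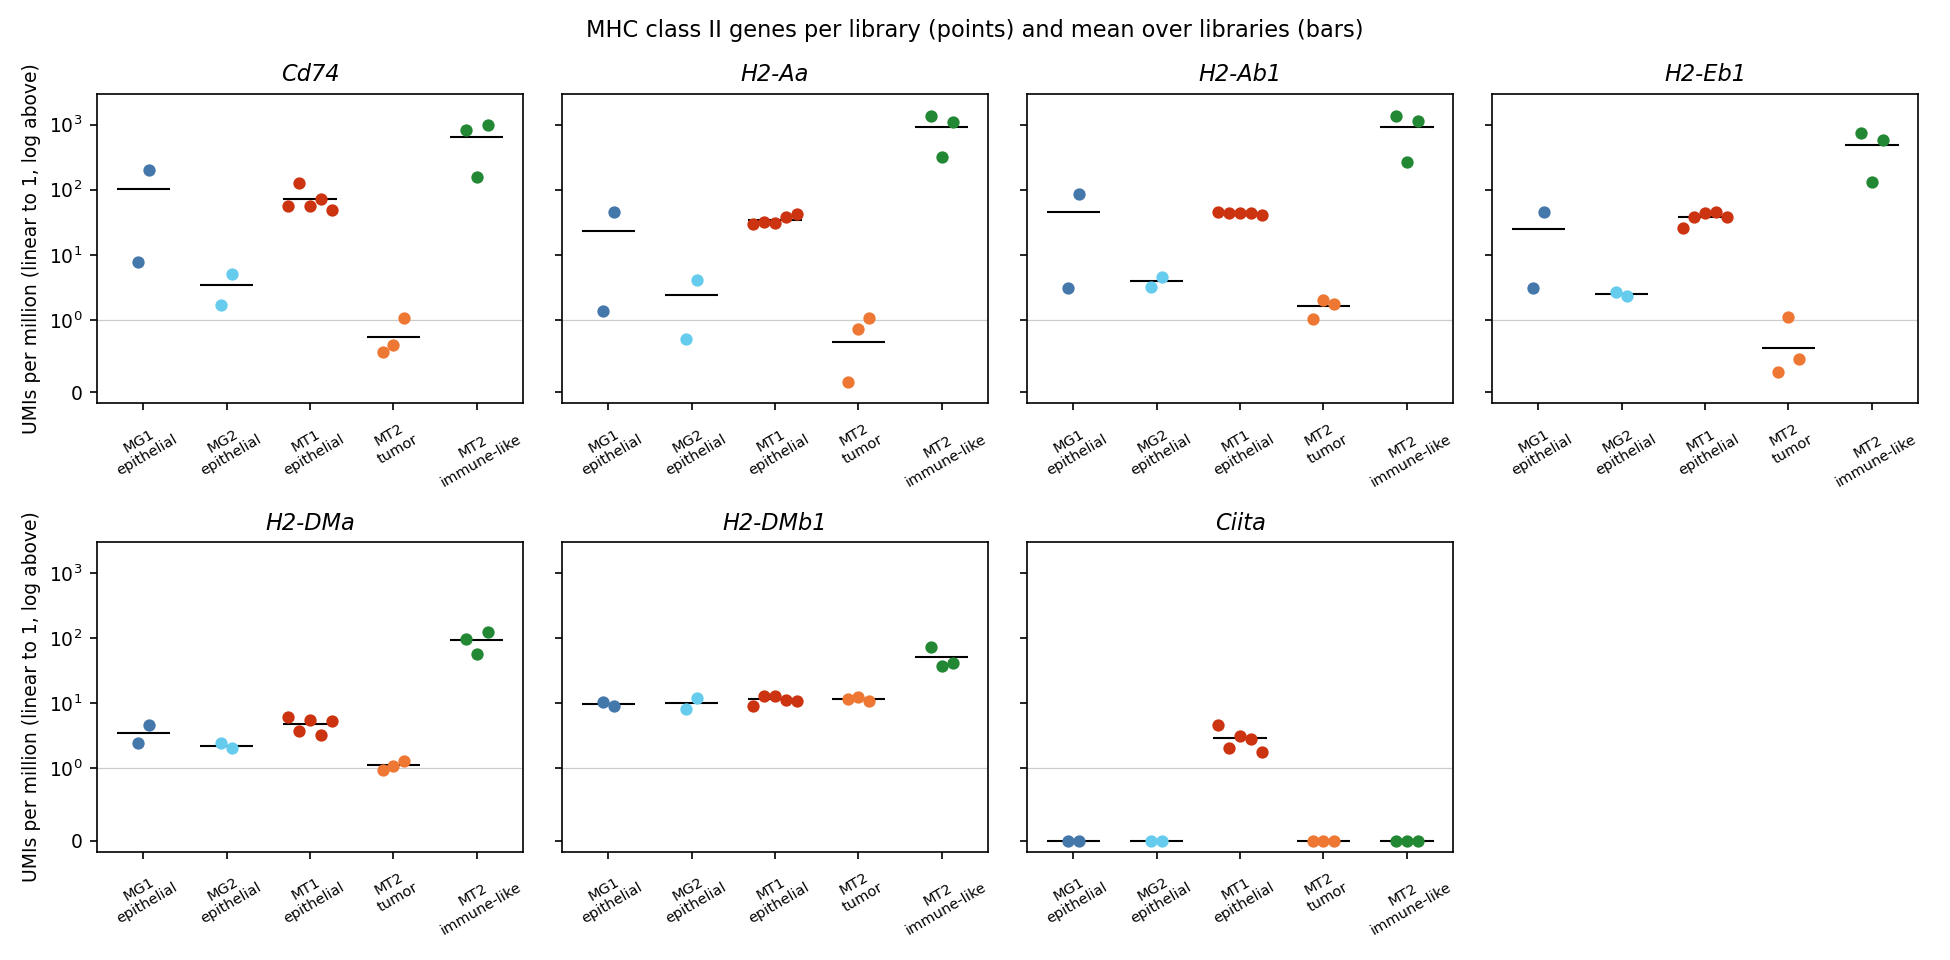
Level of each of the 7 genes (CPM, axis linear to 1 and log above) in each library, by group: Ptprc-negative Epcam-positive cells of MG1, MG2 and MT1, MT2 tumor cells and MT2 immune-like cells, with 1 point per library and a bar at the mean. The MT1 points lie together for H2-Ab1 (40.8 to 46.3 CPM), the MG1 points lie far apart for Cd74 (7.65 and 199 CPM), and H2-DMb1 is level across the epithelial and tumor groups.

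The share of cells with a UMI was read for Cd74, the invariant chain. It was seen in 0.785% (5 of 637 cells) and 5.43% (5 of 92 cells) of MG1 cells, and in 0.187% and 0.193% of MG2 cells (2 cells in each library). In MT1 the share was 4.05%, 7.25%, 4.35%, 5.69% and 3.27%, and exact 95% Clopper-Pearson intervals ran from 2.33% to 9.53% over the 5 libraries. MG1 replicate 2, highest by level, thus lay below MT1 replicates 2 and 4 by share. MT2 tumor cells, with a median of 3141 UMIs per cell, had shares of 0.081%, 0.043% and 0.077%, while the MT1 cells had a median of 2154 UMIs. These intervals cover counting error only. Unthinned, the share was 12.3% in MT1 and 0.330% in MT2 tumor cells.

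Free RNA in the suspension puts some UMIs into cells that do not express a gene, and the immune genes give a measure of it in MT2. There the summed level in tumor cells was 0.120% of that in immune-like cells for Cd74, 0.0795% for H2-Aa, 0.190% for H2-Ab1 and 0.136% for H2-Eb1. Of 9 leukocyte and macrophage genes read the same way (Ptprc is 0 by the gate), 7 lay between 0.0629% (Laptm5) and 0.148% (Rac2), with Lyz2 at 0.0934%, and only Coro1a at 0.580% and Cd53 at 3.37% lay higher. H2-Ab1 thus lay above these 7 genes, and Cd74, H2-Aa and H2-Eb1 within their range. How much of the counts in MT2 tumor cells is free RNA was not tested. H2-DMa stood at 1.20% and H2-DMb1 at 24.8% of the immune-like level, with 484 UMIs of H2-DMb1 in tumor cells and 26 in immune-like cells.

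**Figure D2:**
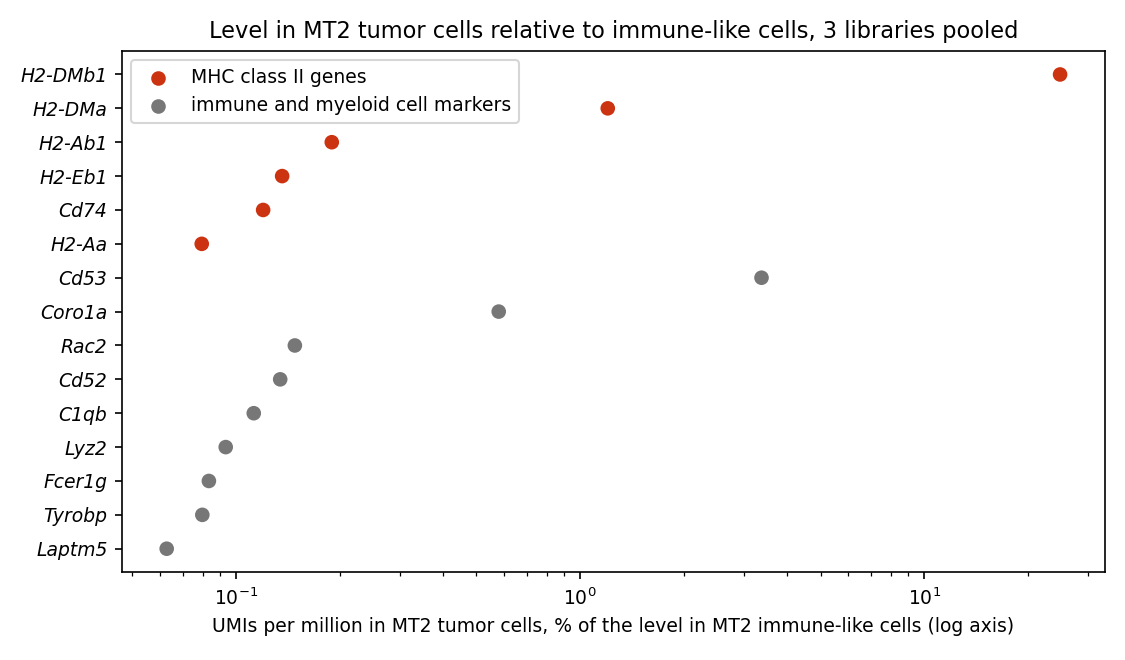
Pooled level in MT2 tumor cells as a percent of that in MT2 immune-like cells (log axis), for 6 of the 7 genes and for genes of leukocytes and macrophages. Cd74, H2-Aa and H2-Eb1 lie between 0.0795% and 0.136%, within the range of most leukocyte genes, H2-Ab1 lies above that range at 0.190%, and H2-DMb1 lies at 24.8%.

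The change from gland to tumor was tested first in mouse 1. Of the 6 members with UMIs in MG1, H2-Eb1 was called higher in MT1 than in MG1 (edgeR quasi-likelihood test on sums per library, Benjamini-Hochberg adjusted p under 0.05) and 0 were called lower. Over all 13812 genes tested 60.3% were called, 31.7% higher and 28.6% lower, so 1 of 6 is no more than the background. For H2-Eb1 the log2 fold change was 1.45 (SE 0.56, adjusted p 0.0332). Ciita was called as well, but it passed the filter on low counts through MT1 alone and its call compares MT1 with a count of 0, so it is left out of the counts of called members of MT1 against MG1. The others did not pass the test, with log2 fold changes of 1.48 for H2-Aa (SE 0.68, adjusted p 0.0688), 0.67 for H2-Ab1 (SE 0.60, adjusted p 0.346), 0.63 for H2-DMa (SE 0.46, adjusted p 0.247), 0.18 for H2-DMb1 (SE 0.27, adjusted p 0.583) and -0.09 for Cd74 (SE 0.65, adjusted p 0.922).

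This comparison turned on which MG1 library was kept. Without MG1 replicate 2 the log2 fold change was 3.13 for Cd74, 4.53 for H2-Aa, 3.70 for H2-Ab1 and 3.56 for H2-Eb1, and these 4 of the 6 members were called higher, where 28.6% of all genes were called higher and 26.4% lower. H2-DMa was then at 0.85 and H2-DMb1 at 0.09. Without MG1 replicate 1 it was -1.29 for Cd74, -0.18 for H2-Aa, -0.80 for H2-Ab1 and -0.05 for H2-Eb1, and 2 of the 6, Cd74 and H2-Ab1, were called lower (22.1% of all genes, with 23.6% higher). In each case the remaining MG1 library was assumed to vary like the other groups. The call of H2-Eb1 was also lost without MT1 replicate 3 (1.35), 4 (1.33) or 5 (1.43) and without MT2 replicate 3 (1.40). RLE size factors, DESeq2, both gates outside stromal clusters and a fit of only the groups of the contrast lost it too. So did leaving out the 5% of cells with the most UMIs. H2-DMa and H2-DMb1 were not called in any of these fits.

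**Figure D3:**
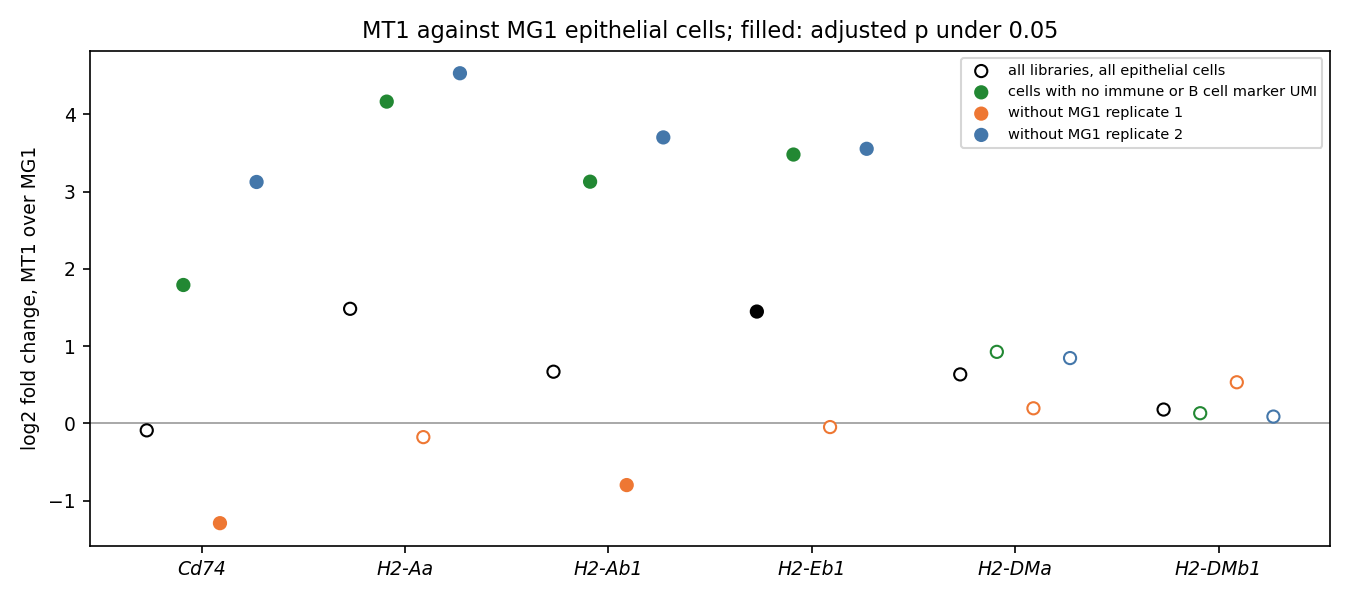
Log2 fold change of MT1 over MG1 epithelial cells for the members other than Ciita in the fit of all libraries and in fits without MG1 replicate 1, without MG1 replicate 2 and without cells that hold an immune or B cell marker UMI. Filled points were called by edgeR. Cd74 runs from -1.29 to 3.13 and H2-Aa from -0.18 to 4.53, while H2-DMb1 stays between 0.09 and 0.53.

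Where the class II UMIs of MG1 sat was then counted, over Cd74, H2-Aa, H2-Ab1 and H2-Eb1 together (the 4 presenting genes). MG1 epithelial cells held 288 of these UMIs, 244 of them in the 92 cells of replicate 2. Just 18 MG1 cells had a UMI of a B cell marker (Cd79a, Cd79b, Ms4a1 or Ighm), and they held 197 of the 288 UMIs (68.4%). In replicate 2 the count was 10 cells with 193 of 244 UMIs (79.1%). The highest pair of cells, with 100 and 57 UMIs, had 1 and 4 UMIs of Epcam and 7 and 15 of the B cell markers, and both lay in the luminal secretory-like cluster, whose leading genes include the immunoglobulin gene Igkc beside milk protein genes. In MG2 the cells with a B cell marker UMI held 2.06% and in MT1 0.161% of the UMIs of the presenting genes. The B cell markers, 4 of a list of 5 with a row in the table, summed to 229 UMIs in MG1, 5 in MG2 and 6 in MT1. Cells with a UMI of any of 8 immune markers held 64.6% of the presenting genes' UMIs in MG1, 9.28% in MG2 and 0.933% in MT1, and these markers, with Ptprc at 0 by the gate, summed to 25, 6 and 24 UMIs.

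With all cells that held an immune or B cell marker UMI left out (704 MG1 cells remained), the summed level of the 4 presenting genes was 14.1 and 85.7 CPM in MG1, against 15.3 and 376 CPM with them. In MG2 it was 8.34 and 13.99 CPM, against 8.33 and 16.2 CPM. In MT1 it was 158 to 243 CPM, against 160, 243, 175, 199 and 171 CPM. For this sum every MT1 library then lay above every gland library, but not for Cd74 alone, which read 62.3 CPM in MG1 replicate 2 and 56.5, 55.7 and 49.5 CPM in MT1 replicates 1, 3 and 5. Of the 44 UMIs of the presenting genes left in MG1 replicate 2, 21 were Cd74 UMIs of 1 cell with 1 Epcam UMI in the endothelial and mural-like cluster. In the same fit 4 of the 6 members were called higher in MT1 than in MG1, where 31.6% of all genes were called higher and 28.3% lower. Their log2 fold changes were 1.79 for Cd74, 4.17 for H2-Aa, 3.13 for H2-Ab1 and 3.48 for H2-Eb1. This gate was added after the data had been seen.

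In mouse 2 the tumor cells showed no called change in any member against the gland in the main fit. The log2 fold changes of MT2 tumor cells over MG2 were -1.98 for Cd74 (SE 1.28, adjusted p 0.181), -1.62 for H2-Aa (SE 1.04, adjusted p 0.181), -1.11 for H2-Ab1 (SE 0.85, adjusted p 0.262), -1.85 for H2-Eb1 (SE 0.90, adjusted p 0.0794), -0.84 for H2-DMa (SE 0.42, adjusted p 0.0846) and 0.37 for H2-DMb1 (SE 0.22, adjusted p 0.144), by edgeR. Of all genes 66.8% were called, 32.5% higher and 34.3% lower. With Ciita at 0 UMIs in both groups and left out, the count of members was 0 of 6, also at an unadjusted p under 0.05 and by DESeq2. It was 2, both lower, without immune marker UMIs, where 34.7% of all genes were called lower. It was 3, all lower, without immune or B cell marker UMIs (34.7% of all genes) or with only the groups of the contrast (34.1%). It was 4, all lower (Cd74, H2-Aa, H2-Ab1 and H2-Eb1), when MG1 replicate 1 or MG1 replicate 2 was left out, where 35.8% and 36.6% of all genes were called lower, and 1 (H2-Eb1) without MT2 replicate 2, where 32.7% were. Without MG2 replicate 2 the change of H2-Aa was 0.03.

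The difference between the mice in this change was tested as an interaction. H2-Eb1 changed by 3.30 more on the log2 scale in mouse 1 than in mouse 2 (SE 1.08, adjusted p 0.0189, edgeR), and it was the 1 member called, where 47.1% of all genes were called (27.3% higher and 19.8% lower). H2-Aa (3.10, SE 1.27, adjusted p 0.0544), H2-DMa (1.48, SE 0.62, adjusted p 0.0598), Cd74 (1.89, SE 1.42, adjusted p 0.292) and H2-Ab1 (1.78, SE 1.05, adjusted p 0.175) were positive without passing, and H2-DMb1 was at -0.19 (SE 0.35, adjusted p 0.699). Ciita, at 0 UMIs in 3 of the 4 groups, gave no usable value in this test or in that of mouse 2. With Epcam at 2 or more UMIs, without immune marker UMIs, or without immune or B cell marker UMIs, 5 of 6 members were called higher. In those fits 27.6%, 27.6% and 27.7% of all genes were called higher and 19.6%, 19.3% and 19.2% lower. The call of H2-Eb1 was lost without either MG2 library (3.19 and 3.47). Without MG1 replicate 2 the interaction was 5.10 for Cd74, 6.15 for H2-Aa, 4.80 for H2-Ab1 and 5.40 for H2-Eb1, all 4 called higher, as were 26.4% of all genes, with 18.5% lower. With sums per mouse and tissue and the mouse as block, so that the animal is the replicate, 0 of 14896 genes were called by edgeR and 1804 had an unadjusted p under 0.05. Of the members, log2 changes of tumor over gland in that fit ran from -0.54 for Cd74 (adjusted p 0.802) to 0.36 for H2-DMb1.

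The glands were also set against each other. Cd74 was lower in MG2 than in MG1 (log2 fold change -4.59, SE 1.00, adjusted p 0.00775), as was H2-Ab1 (-2.92, SE 0.85, adjusted p 0.0417). They were 2 of the 6 members with UMIs in the glands, where 8.59% of all genes were called, 3.83% higher and 4.76% lower. H2-Eb1 (-2.61, adjusted p 0.0612) and H2-Aa (-2.47, adjusted p 0.142) did not pass. Without MG1 replicate 2 the count was 0 (8.38% of all genes were called), with -1.38 for Cd74, 0.11 for H2-Ab1, 0.56 for H2-Aa and -0.52 for H2-Eb1. Without MG2 replicate 1 it was also 0, and the call of H2-Ab1 was lost when any other library than MG1 replicate 1 was left out (-2.69 to -3.16 apart from MG1 replicate 2).

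Within the glands, cells were grouped by clusters that were built without the class II genes. In luminal secretory-like cells, which make milk proteins, Cd74 read 9.95 and 454 CPM in MG1 and 0.559 and 6.20 CPM in MG2. In luminal hormone-sensing-like cells, which carry the prolactin receptor, it read 0.793 and 11.8 CPM in MG1 and 0.554 and 2.88 CPM in MG2. In basal-like cells, the contractile layer, it read 18.8 and 30.3 CPM in MG1 and 11.9 and 14.8 CPM in MG2, on 5, 2, 4 and 4 UMIs. H2-DMb1 ran the other way, at 19.0, 15.7, 16.1 and 19.0 CPM in hormone-sensing-like cells and at 3.98, 4.49, 2.24 and 6.76 CPM in secretory-like cells, with no overlap over 4 libraries. Basal-like cells read 3.76, 0, 0 and 3.71 CPM of H2-DMb1.

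With the library as block, edgeR could test only Cd74, H2-Ab1 and H2-DMb1 in secretory-like against hormone-sensing-like cells. H2-Aa, H2-Eb1, H2-DMa and Ciita fell under the filter on low counts. All 3 tested members were called, where 33% of 9061 genes were called (15.8% higher and 17.2% lower). A member can pass that filter through the class where it is high, so 3 of 3 is not a share of the members. Cd74 was higher in secretory-like cells (log2 fold change 3.56, SE 0.69, adjusted p 0.000234), H2-Ab1 was higher (2.64, SE 0.57, adjusted p 0.000733) and H2-DMb1 was lower (-1.93, SE 0.40, adjusted p 0.000479). Without MG1 replicate 2 the value of Cd74 was 1.78 and not called, and H2-Ab1 fell under the filter. Without cells that held an immune or B cell marker UMI it was 2.24 and called, H2-DMb1 was at -2.001, and H2-Ab1 fell under the filter. Against basal-like cells 0 of 3 members were called (28.1% of all genes, 13.7% higher and 14.4% lower), with 0.79 for Cd74 (SE 0.72, adjusted p 0.456), 1.48 for H2-Ab1 (SE 0.76, adjusted p 0.150) and 0.95 for H2-DMb1 (SE 0.97, adjusted p 0.506), by edgeR. At an unadjusted p under 0.05 the count was also 0. DESeq2 gave -0.46 for Cd74 in that comparison, and -1.63 was found without MG1 replicate 2.

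In tumor MT1 the class II genes were not spread evenly over the tumor cells. Most Epcam-positive tumor cells fell into clusters 3 (3193 cells) and 4 (2464 cells), both epithelial-like by their markers. The leading genes of cluster 4 were the chemokine gene Ccl20, the decoy receptor gene Tnfrsf11b and the interferon-inducible genes Ifi27l2a, Ubd, Ifi44 and Mndal among others, and those of cluster 3 began with the Wnt inhibitor gene Sfrp1. Of 3108 UMIs of the 4 presenting genes in MT1 epithelial cells, 2840 lay in cluster 4 and 218 in cluster 3. As the clusters were compared after their values had been seen, the levels are a description with no test.

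Cd74 read 127, 323, 135, 180 and 122 CPM in cluster 4 and 13.5, 18.2, 6.83, 5.80 and 4.82 CPM in cluster 3 over the 5 MT1 libraries. The lowest library of cluster 4 lay above the highest of cluster 3. Mean levels in cluster 4 and cluster 3 were 87.1 ± 14.3 and 3.27 ± 1.54 CPM for H2-Aa, 103 ± 7.77 and 9.23 ± 3.26 CPM for H2-Ab1, and 93.8 ± 19.0 and 5.25 ± 2.19 CPM for H2-Eb1 (SD, n = 5). For the peptide-loading genes the means were 22.4 ± 4.30 and 3.59 ± 1.84 CPM for H2-DMb1, with no overlap of libraries, and 8.68 ± 4.10 and 2.29 ± 0.972 CPM for H2-DMa, where the lowest library of cluster 4 (3.76 CPM) lay under the highest of cluster 3 (3.95 CPM). The libraries of the clusters overlapped for Ciita, at 7.96, 2.33, 4.71, 5.63 and 1.88 CPM in cluster 4 and 2.99, 2.37, 2.73, 1.34 and 2.06 CPM in cluster 3. These rest on 27 UMIs in 2464 cells and 19 UMIs in 3193 cells, too few to tell whether the clusters differ. So the level of H2-DMb1, alike between gland and tumor as a whole, was uneven within the tumor. The 2 immune-like cells of MT1, outside the gate, held 57 UMIs of the presenting genes.

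**Figure D4:**
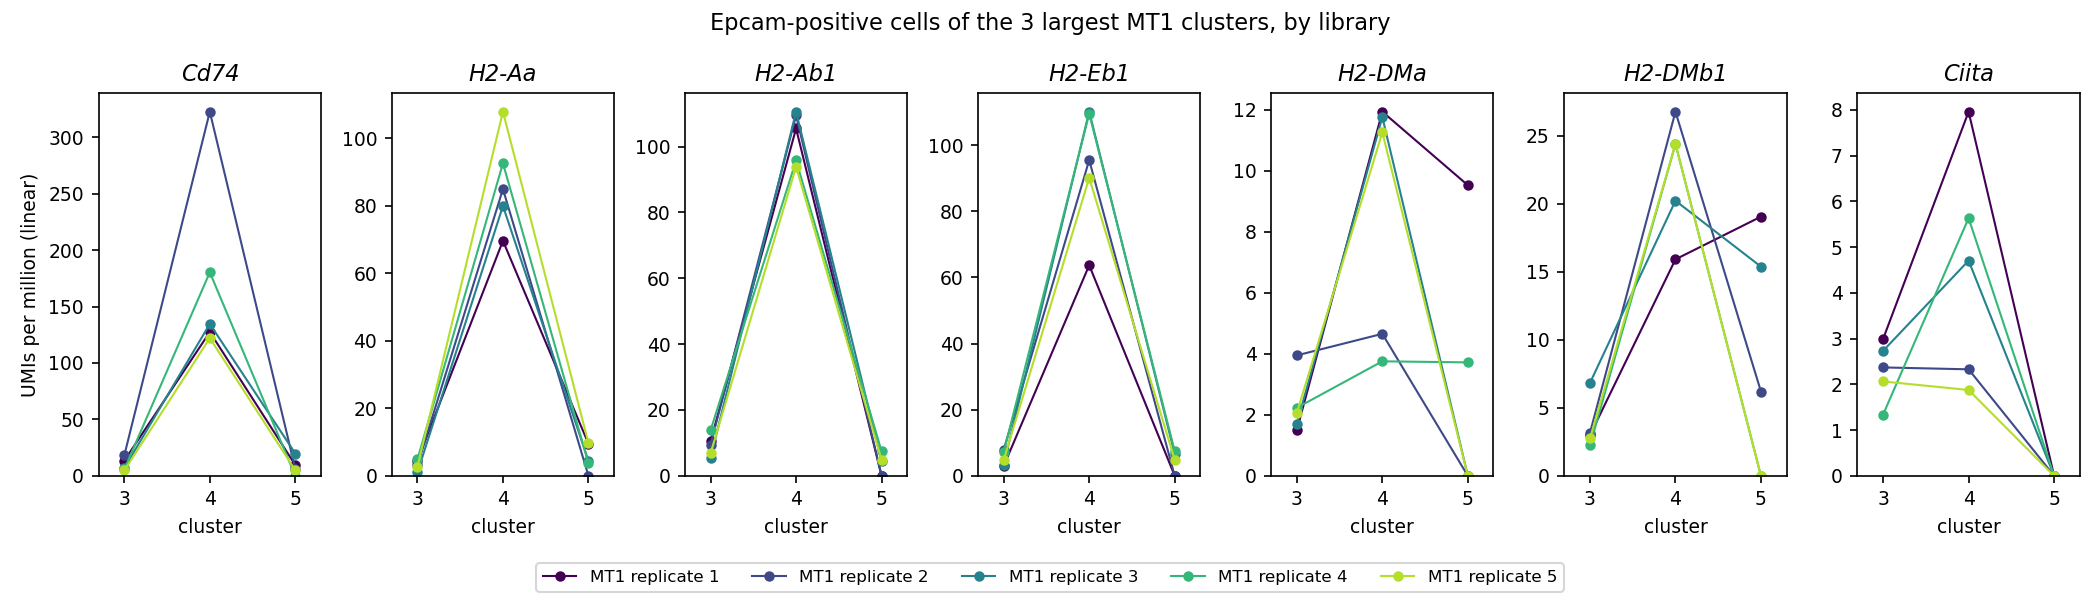
Level of the members (CPM, linear axis) in Epcam-positive cells of MT1 clusters 3, 4 and 5, with 1 point per library and a line joining the points of a library. Cluster 5 was given no name by its markers. The cluster 4 points of Cd74, H2-Aa, H2-Ab1 and H2-Eb1 all lie above those of cluster 3, and the Ciita points overlap.

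Immune marker UMIs in cluster 4 were few beside the class II counts. Cluster 4 had 3.87 UMIs of the 8 immune markers per 1000 UMIs of the presenting genes, and all MT1 epithelial cells 7.72, where MG2 had 61.9, MG1 86.8, MT2 immune-like cells 975 and MT2 tumor cells 1293. This ratio falls as the class II counts rise. Cluster 4 was described because they were high, so the ratio does not compare immune cell content. The 11 immune marker UMIs of cluster 4 sat in 11 of its 2464 cells, and the 6 of MG2 in 6 of 2108 cells. Of the UMIs of the presenting genes, the top 5% of cells held 35.8% in cluster 4 and 94.4% in MG1, where as in the other MG1 values of this paragraph both libraries are pooled. In MG1 only 53 of 729 cells held any such UMI, against 1157 of 2464 in cluster 4, which by itself makes the MG1 share large. Cells with 5 or more such UMIs numbered 143 in cluster 4, 151 in all of MT1, 6 in MG1, 4 in MG2, 53 of 178 among MT2 immune-like cells and 0 of 9789 among MT2 tumor cells.

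Co-detection was counted in single cells at 800 UMIs. At least 1 of the 4 presenting genes was seen in 24.9% of cluster 4 cells (614 of 2464), in 1.75% of cluster 3 cells (56 of 3193), in 10.95% of all MT1 epithelial cells (681 of 6218), in 2.33% of MG1 (17 of 729, or 1.26% of replicate 1 and 9.78% of replicate 2), in 0.759% of MG2 (16 of 2108), in 0.327% of MT2 tumor cells (32 of 9789) and in 38.2% of MT2 immune-like cells (68 of 178). Unthinned, the shares were 47.0% in cluster 4, 4.64% in cluster 3, 1.42% in MT2 tumor cells and 47.2% in MT2 immune-like cells. Of the positive cells in cluster 4, 468 had 1 of the genes, 116 had 2, 26 had 3 and 4 had all 4, so that 23.8% had 2 or more. Positive immune-like cells of MT2 had 20, 11, 11 and 26 cells with 1, 2, 3 and 4 genes, and 70.6% had 2 or more. In MT2 tumor cells 1 of 32 positive cells (3.13%) had 2. The share with 2 or more was 23.5% of the 17 positive MG1 cells, like that of cluster 4, 10.7% in cluster 3 and 6.25% in MG2.

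**Figure D5:**
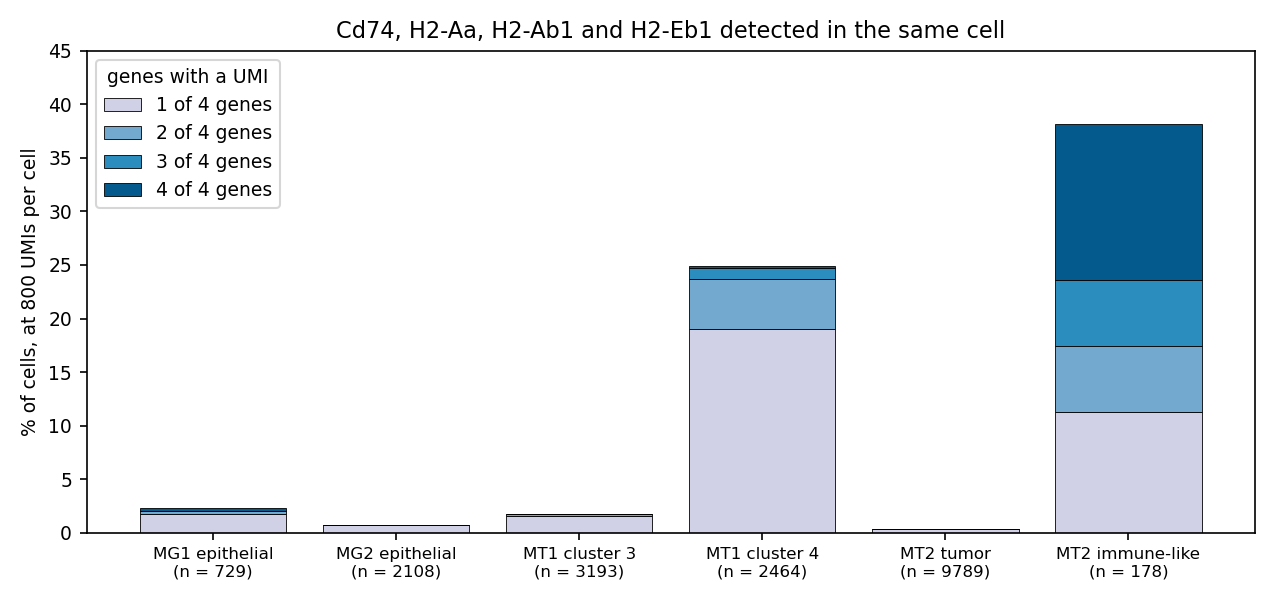
Share of all cells with 1, 2, 3 or 4 of the presenting genes Cd74, H2-Aa, H2-Ab1 and H2-Eb1 detected at 800 UMIs per cell, by cell population. Bars total 38.2% in MT2 immune-like cells, 24.9% in MT1 cluster 4 and 0.327% in MT2 tumor cells. Within these totals, cells with 2 or more genes make up 70.6%, 23.8% and 3.13%.

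Within cluster 4 every pair of the presenting genes was found in the same cell more often than the product of their shares in each library gives. H2-Aa and H2-Ab1, the chains that pair with each other, were both seen in 35 cells, 3.26 times the product. For Cd74 the values were 2.28 times with H2-Aa (36 cells), 2.03 times with H2-Ab1 (41 cells) and 2.26 times with H2-Eb1 (47 cells), and the last pairs were at 2.57 (H2-Aa with H2-Eb1, 29 cells) and 2.04 (H2-Ab1 with H2-Eb1, 30 cells). Unthinned counts gave 1.70 to 2.41 times. Over all MT1 epithelial cells the thinned values were 4.29 to 7.25 times, and there most positive cells lay in cluster 4. Counts per cell are sparse, and these ratios describe these cells with no test.

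Positive and negative cells of cluster 4 were also compared in genes that did not define them. H2-DMb1 stood at 48.1 ± 31.4 CPM in positive and 15.9 ± 14.3 CPM in negative cells (higher in 4 of 5 libraries), H2-DMa at 13.6 ± 16.5 and 3.19 ± 4.07 CPM (2 of 5) and Ciita at 9.88 ± 10.6 and 3.27 ± 2.31 CPM (3 of 5). These rest on 19 and 25, 5 and 7, and 4 and 5 UMIs, so they are uncertain. The genes of the interferon gamma route summed to 892 ± 55.4 CPM in positive and 809 ± 92.96 CPM in negative cells (higher in 4 of 5). Of its receptor genes, Ifngr1 was at 195 ± 47.9 and 228 ± 62.2 CPM (higher in 1 of 5) and Ifngr2 at 280 ± 69.3 and 223 ± 42.4 CPM (4 of 5). Positive cells had 99.9 ± 20.4 and negative cells 85.0 ± 12.2 CPM of Irf1 (SD, n = 5, higher in 4 of 5). Ubd, an interferon-inducible ubiquitin-like gene, was at 335 ± 67.2 and 272 ± 34.6 CPM (4 of 5), and Ctss, the protease that trims the invariant chain, at 25.3 ± 14.9 and 10.01 ± 7.35 CPM (4 of 5), on 10 and 14 UMIs. The processing genes as a list, Ctss among them, were at 533 ± 305 and 609 ± 145 CPM (higher in 1 of 5). Epcam stood at 3216 ± 267 and 3125 ± 188 CPM (3 of 5) and Krt18 at 3216 ± 255 and 3713 ± 314 CPM, lower in positive cells in 5 of 5 libraries. The 614 positive cells held 1 immune marker UMI and 0 UMIs of B cell and of T and NK cell markers at this depth, against 2, 2 and 0 in the 1850 negative cells. Myeloid markers without Cd14 had 2 UMIs in positive and 2 in negative cells, or 6.43 ± 11.05 and 1.03 ± 2.296 CPM (higher in 2 of 5 libraries), and their part in the counts of positive cells was not tested.

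Among all MT1 epithelial cells the contrast was wider. Irf1 was at 102.6 ± 17.98 CPM in the 681 positive and 72.5 ± 9.05 CPM in the 5537 negative cells, and Ifngr2, a chain of the interferon gamma receptor, at 270.6 ± 64.6 and 153.8 ± 16.8 CPM, each higher in 5 of 5 libraries. The route summed to 878 ± 53.98 and 624 ± 31.6 CPM (5 of 5), while Jak1 was at 153.2 ± 75.2 and 166 ± 24.6 CPM (higher in 1 of 5). The processing genes were at 537 ± 262 and 653 ± 103.2 CPM (1 of 5). Epcam was at 3083 ± 339 and 2181 ± 103 CPM (5 of 5). Immune markers were at 4.74 ± 10.6 and 1.96 ± 1.63 CPM (higher in 1 of 5, on 4 and 8 UMIs) and the myeloid markers at 5.65 ± 9.67 and 1.65 ± 1.85 CPM (2 of 5, on 2 and 7 UMIs). The cells of cluster 4 make up 614 of the 681 positive cells.

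Immune-like cells of MT2 gave the reference for cells that make class II molecules. Cd74 read 812, 157 and 991 CPM in their 3 libraries, H2-Aa 1345, 323 and 1107 CPM, H2-Ab1 1377, 266 and 1117 CPM and H2-Eb1 754, 133 and 582 CPM. Replicate 2 was the lowest library in each of these genes. H2-DMa read 98.4, 56.9 and 126 CPM and H2-DMb1 73.8, 38.0 and 41.9 CPM. By their markers 152 of the 178 cells were myeloid, and these held 1508 of the 1524 UMIs of the presenting genes, while 25 cells with no myeloid, B cell, T or NK cell or dendritic markers held 2.

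All 6 members that could be tested were higher in immune-like than in tumor cells of the same libraries by edgeR with the library as block, where 15.8% of 12461 genes were called, 7.38% higher and 8.45% lower. The log2 fold change was 10.03 for H2-Aa (SE 0.36), 9.36 for Cd74 (SE 0.36), 9.20 for H2-Eb1 (SE 0.36), 8.72 for H2-Ab1 (SE 0.33), 6.14 for H2-DMa (SE 0.50) and 1.87 for H2-DMb1 (SE 0.45, adjusted p 0.000421). H2-DMb1, which made 4.89 UMIs per 100 of the presenting genes in MT1 cluster 4 and 1.71 in immune-like cells, made 83.5 in MG2 and 323 in MT2 tumor cells. The immune-like cluster was chosen by immune genes, none of them a member, and the calls stayed the same under every alternative that was run for this comparison.

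Set beside these immune-like cells, the presenting genes of MT1 cluster 4 were lower in every library, except that Cd74 in immune-like replicate 2 (157 CPM) lay within the range of cluster 4 (122 to 323 CPM). H2-Eb1, for example, reached 110 CPM in cluster 4 and had its lowest immune-like library at 133 CPM. Median depths were 2044 UMIs per cell in cluster 4 and 2287 in the immune-like cells. The cells come from different tumors and mice, so this is given side by side with no test.

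The rest of the pathway was read from a list of 29 genes, 25 of which have a row in the table. In mouse 1, 8 of 22 tested genes were called higher in MT1 than in MG1 and 3 lower, where 31.7% of all genes were called higher and 28.6% lower, at a median log2 change of 0.37 against 0.06 for all genes. Without MG1 replicate 2 it was 8 higher and 4 lower of 22. In the interferon gamma route the receptor genes Ifngr1 (1.46) and Ifngr2 (2.54), the transcription factor gene Irf1 (0.51) and the feedback inhibitor gene Socs1 (1.41) were higher, and the kinase genes Jak1 (-0.86) and Jak2 (-1.33) were lower. Ifngr2 read 25.7 and 30.9 CPM in MG1, 43.9 and 49.0 CPM in MG2, 188, 170, 145, 174 and 141 CPM in MT1 and 91.5, 102 and 92.5 CPM in MT2 tumor cells. The MT1 libraries lay above all others, and the MG1 libraries were close to each other. Both tested genes of costimulation were called higher, Cd274, which encodes the inhibitory ligand PD-L1 (2.39), and Cd40. Cd40, a receptor of the TNF receptor family, had 0 and 1 UMIs in MG1 and 6, 9, 24, 9 and 6 in MT1, so no fold is given. Of the 7 promoter factors 1 was higher (Rfxap, 0.63) and 1 lower (Nfyb, -0.78), and of the 4 processing genes 0 were called.

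In mouse 2 the list gave 5 genes higher and 5 lower of 22, where 32.5% of all genes were higher and 34.3% lower, at a median of -0.14 against -0.05 for all genes. The interferon gamma route gave Ifngr2 (1.19) and Socs1 (1.86) higher and Jak1 (-0.54) lower, with Irf1 at -0.29 (SE 0.15, adjusted p 0.0945, edgeR). Other calls were Lgmn, a protease of the endosome (2.04), Cd274 (1.01) and Nfya (0.97) higher, and H2-DMb2 (-2.37), H2-Oa, Ctss (-1.59) and Nfyb (-0.79) lower. H2-Oa had 3 and 1 UMIs in MG2 and 0 in all MT2 libraries and passed the filter through other groups, so its call is against a count of 0 and the other 4 lower calls are those with UMIs in both groups. In the difference between the mice 8 of 22 were called higher and 3 lower (27.3% and 19.8% of all genes), among them Irf1 (0.80), Ifngr1 (1.33), Ifngr2 (1.35) and Cd40 higher and Jak2 (-1.54), Lgmn (-1.83) and Nfya (-1.41) lower, with Rfxap (0.67) and Ctsl (0.72) also higher. The 8 include H2-Oa, for which the count of 0 in MT2 enters here too. Between the glands 1 of 22 was called, Ctsl (0.86), where 8.59% of all genes were. In immune-like against tumor cells of MT2, 6 of 23 were higher and 0 lower (7.38% and 8.45% of all genes), with Ctss (9.77), Cd86 and Cd80 among them, and the 7 genes of the interferon gamma route and the 7 promoter factors gave 0 calls. Cd86 had 9, 9 and 16 UMIs in immune-like cells and 0, 0 and 1 in tumor cells, and Cd80 1, 0 and 7 against 6, 3 and 2, in far fewer immune-like cells.

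Over the 12 library sums, the 5 genes outside these lists whose log2 levels ran most like the mean of the members other than Ciita were Gm31597 (Pearson r 0.984), Gm20275 (0.982), Mpeg1 (0.974), Ggps1 (0.970) and Blnk (0.969). Mpeg1 encodes a pore-forming protein of macrophages and Blnk an adaptor of B cell receptor signalling. Their mean levels in MG1, MG2, MT1 and MT2 were 3.26, 0.385, 5.05 and 0.123 CPM for Mpeg1 and 14.1, 4.01, 39.1 and 0.345 CPM for Blnk. The libraries share tissues and mice, so the correlations are descriptions with no p.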

How the data were processed

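RNA of single cells was counted by Drop-seq, in which each cell is captured in a droplet with a barcoded bead and each RNA molecule carries a UMI. The authors aligned the reads with STAR to GRCm38.p6 and processed them with the Drop-seq tools, and deposited a table of unnormalized UMI counts with 21743 genes in rows and 21157 cells of 12 libraries in columns. How reads of paralogs were divided, and whether strand was used, is not given in the sources used here. Libraries were numbered in accession order, so a number pairs nothing, and 0 columns were left without a library. Libraries shared 0 to 7 barcodes, and the libraries of each group differed by more than sampling noise, so all were kept as separate.

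The genes and gene lists were chosen with earlier results of these data known. The text names all 7 members, the listed pathway genes that were called in a comparison (1 of them is not reported here), and the 5 genes most like the members over the libraries. Epithelial cells were those with 0 UMIs of Ptprc and 1 or more of Epcam. Clusters (scanpy 1.11.5, leidenalg 0.10.2, 3000 variable genes, 30 components, 20 neighbours, resolution 0.6, 9 class II genes left out, 11 clusters) were given "X-like" names by lists of markers, with 3 markers or more at a log2 fold of 1 or more. The names were rebuilt here and are not the study's. Doublets were not removed, and leaving out the 5% of cells with the most UMIs was an alternative. MT2 tumor cells were those of clusters with 90% or more of cells from tumor libraries, outside stromal clusters.

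Counts were summed per library and cell class (at least 10 cells) and compared by the quasi-likelihood F test of edgeR 4.0.16 (R 4.3.3), with TMM factors, the filterByExpr filter and a Benjamini-Hochberg adjusted p under 0.05 as the call, with the 4 groups in 1 fit or, between classes of the same libraries, the library as block. The SE was taken as the size of the log2 change over the root of its F statistic. The fit was tested on simulated data. Gland and tumor of a mouse are paired by the mouse in the labels, so sums per mouse and tissue were also fitted with the mouse as block. Alternatives were other size factors, no filter, DESeq2 1.42.0, other gates, own groups only and leaving out each library. Shares of cells were read after thinning to 800 UMIs, below which 0 cells lay, and a group at 0 was bounded by 3 counts. Intervals and limits cover counting error only.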

Additional observations from a re-analysis of the deposited data

Results flagged for a closer look

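Of 16 measures of MT1 epithelial cells checked for a library far from the others, 2 had such a library, and chance alone gives about 1 in 20. The other groups, MG1 with its 2 libraries among them, were not checked in this way. Cd74 stood at 127.778 CPM in MT1 replicate 2, where the other 4 libraries lay between 49.3 and 71.4 CPM. In the same library Cd74 was also the highest in cluster 4 (323 CPM), while H2-Aa, H2-Ab1 and H2-Eb1 of its epithelial cells lay within the range of the other libraries. H2-DMa was seen in 0.239664% of MT1 replicate 4 cells at 800 UMIs (4 of 1669), where the others lay between 0.309% and 0.335%, on 2 to 7 cells each. Lastly, the change of H2-Eb1 from gland to tumor differed between the mice by 3.29771 on the log2 scale (SE 1.08, adjusted p 0.0189 by edgeR, range over all alternatives 6.697e-06 to 0.0910), with all 5 MT1 libraries above MG1 replicate 1 and below MG1 replicate 2 (46.3 CPM) and all 3 MT2 libraries below both MG2 libraries.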

How the results depend on the processing

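Of the values of single members under alternatives, 526 kept their direction and their side of the threshold, 49 passed it, 36 no longer did and 28 changed direction, and of the counts and shares 199 stayed close to the main value and 77 did not. All 48 values of members in immune-like against tumor cells of MT2 were kept. The number of libraries, above all 2 of MG1 with 1 of 92 cells, limits every comparison with MG1, and sparse counts limit Ciita and H2-DMa. The causes of the changes below were not tested.

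In MT1 against MG1 2 members were called, or 1 without Ciita, which is tested against a count of 0. The count was 5 (4 without Ciita) with Epcam at 2 or more UMIs, without immune marker UMIs and without immune or B cell marker UMIs, where Cd74 was at 1.42, 1.71 and 1.79. Of all genes 31%, 31.8% and 31.6% were called higher in these fits. The count of members was 1, Ciita itself, with RLE size factors, DESeq2 (H2-Ab1 at -0.040), all Ptprc-negative cells outside stromal clusters (H2-DMb1 at -0.084) or epithelial cells outside stromal clusters (Cd74 at 0.023), and 0 without the 5% of cells with the most UMIs or with only the groups of the contrast. With no filter Cd74 was at 0.055. RLE moved the median of all genes by -0.10 here and by -0.12 in the difference between the mice.

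Sums per mouse and tissue with the mouse as replicate block gave 0 genes and 0 members called for tumor against gland. That fit averages the change over both mice and tests neither comparison by itself. In it H2-DMa was at -0.012, H2-Aa at 0.24, H2-Ab1 at 0.15 and H2-Eb1 at 0.13. Between gland classes, no replicate block gave 1275 genes and 1 member called for secretory-like against hormone-sensing-like cells (2994 and 3 with it) and 1388 genes against basal-like cells (2549 with it).

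In MT2 tumor cells against MG2 (0 members), 1 was called higher with no filter (H2-DMb1) and 1 lower with Epcam at 2 or more UMIs (H2-Eb1), and lower calls numbered 2 without immune marker UMIs, and 3 without immune or B cell marker UMIs or with only the groups of the contrast. Of all genes 26.7% were called higher with no filter, and 34.1% to 34.8% were called lower in the other fits named. In the difference between the mice (1 member), 5 were called higher under each of the stricter Epcam, immune marker and B cell marker gates. There 27.6%, 27.6% and 27.7% of all genes were called higher. In MG2 against MG1 (1186 genes, 2 members), 735 genes were called with all Ptprc-negative cells outside stromal clusters, 727 with epithelial cells outside them and 36 with only the groups of the contrast (0 members). The stricter Epcam and marker gates called 1 member (6.6% to 8.39% of all genes), as did no filter (4.11%). H2-Aa was at 0.026 without immune marker UMIs and at 0.23 without B cell marker UMIs too. In gland classes no filter gave 5 members against hormone-sensing-like cells (20% of all genes called) and 1 against basal-like cells (18% of all genes). Against basal-like cells Cd74 was at -0.46 with DESeq2, -1.08 without immune marker UMIs and -1.23 without B cell marker UMIs too. DESeq2 called 1071 genes in immune-like against tumor cells (1973 by edgeR).

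Leaving out each library in turn gave 1 to 5 members in MT1 against MG1 (0 to 4 higher without Ciita, and 2 lower without MG1 replicate 1), with Cd74 at -1.29 to 3.13, H2-Aa at -0.18 to 4.53, H2-Ab1 at -0.80 to 3.70 and H2-Eb1 at -0.048 to 3.56. It gave 0 to 4 members in MT2 against MG2 (H2-Aa -2.36 to 0.029), 0 to 4 in the difference between the mice (H2-DMb1 -0.39 to 0.15) and 0 to 4 in MG2 against MG1, with 490 to 2144 genes, H2-Aa at -4.14 to 0.56, H2-Ab1 at -4.39 to 0.11 and H2-DMb1 at -0.35 to 0.21. Immune-like against tumor cells gave 664 to 2120 genes. Secretory-like cells gave 1230 to 3523 genes and 0 to 1 members against hormone-sensing-like cells, where members fell under the filter and Cd74 was tested but not called without MG1 replicate 2, and 1212 to 2668 genes against basal-like cells (Cd74 -1.63 to 1.33).

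Without thinning, the share of cells with a Cd74 UMI, as a mean over libraries, was 11.3% instead of 3.11% in MG1 (the mean of 0.785% and 5.43%), 0.809% instead of 0.190% in MG2, 12.3% instead of 4.92% in MT1 and 0.330% instead of 0.0666% in MT2 tumor cells. Without the 5% of cells with the most UMIs it was 0.201% in MG2.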

Other observations

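Epcam-positive Ptprc-negative cells of MT2, 121 in all, were not read as the epithelial cells of that tumor, and those in its tumor clusters are counted among its tumor cells. They held 26 UMIs of Cd74, H2-Aa, H2-Ab1 and H2-Eb1, in 4 cells. Of these, 23 lay in 1 cell, which also held 12 UMIs of the immune markers. The 4 cells of this gate that fell in the immune-like cluster held 24 of the 26.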
